A study of Mus musculus with 4 samples.

Results

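Collagens are the triple-helical proteins of the extracellular matrix, and in a limb bud most of their genes are used outside the cartilage, in dermis, muscle connective tissue, tendon, perichondrium, vessel wall and the sheet beneath the epidermis. Fibrillar collagens build the cable-like fibrils, fibril-associated collagens coat them, type VI collagen forms beaded filaments around cells, and basement membrane collagens form the networks under epithelia and around vessels, nerves and muscle fibres. Each chain is named Col, the number of its type and the number of the chain, and 3 chains wind into 1 molecule.

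The genes described here are the collagen chains other than those of the cartilage types II, IX, X and XI. They were taken by symbol from the probe sets of the array, and 35 of the 16492 probe sets tested carry such a name, 1 probe set per gene. The RefSeq gene table lists 44 mouse collagen genes, of which 7 are the cartilage genes left aside. Col6a6 and Col28a1 were not analysed here. Col6a3 and Col12a1 were named through that table by Entrez gene number, as the platform annotation used here does not list them. By class there were 8 fibrillar, 9 basement membrane, 5 beaded filament, 6 fibril-associated and 4 transmembrane chains, and 3 others.

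The study asked what human SHOX, a homeobox transcription factor of the growth plate that rodents lack, changes in the developing mouse limb. Total RNA of fore- and hindlimbs at E12.5 was hybridized to 4 Affymetrix mouse genome arrays, 2 of embryos carrying Tg(Col2a1-SHOX) and 2 of wildtype littermates, all C57BL/6 in the labels. The transgene is the human SHOXa cDNA behind a Col2a1 promoter and enhancer, which is active in chondrogenic tissue. Per the paper, the construct was injected into hybrid eggs of C57BL/6 and DBA/2, and founders were mated with C57BL/6 mice. The number of such crosses is not given, so the background may be mixed. The lines were heterozygous, and which of the 2 lines was put on the arrays is not given in the sources used here. Each array carried a pool of 2 to 4 embryos, so n = 2 pools per genotype. The design names 2 hybridization experiments, and the array titles share a suffix in pairs of 1 transgenic and 1 wildtype pool. Each pair is taken here as 1 experiment, numbered in the order of listing, which is an assumption, as the labels do not tie the suffix to the experiments. A probe set of the human transgene was not analysed here, so the labels were not checked against it.

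The deposited values are on a log2 scale, with array medians between 7.81 and 7.85. Arrays of 1 experiment were more alike (r = 0.998 and 0.997 across probe sets) than arrays of 1 genotype (r = 0.987 for wildtype and 0.986 for transgenic). Limb mesenchyme genes and cartilage genes were all measured, with list means of 9.35 and 9.04 on the transgenic array of experiment 2. The files give no background or detection call. Of the 35 collagen genes, 31 lay at or above the 25th percentile of mean signal, and Col4a3, Col4a4, Col6a5 and Col13a1 lay below it. In bulk tissue, fewer cells of a type and less RNA per cell cannot be told apart, and with so few arrays the precision is low throughout.

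No collagen gene outside cartilage passed either rule for a genotype difference in the limma fit with genotype alone. The first rule takes the study's thresholds, a log2 difference beyond 0.2 with an unadjusted p under 0.05. The study asked for such a change in both experiments and used its own mixed models, so its full selection was not repeated here. The first rule called 0 of 35 genes higher against a background of 0.133% of all probe sets, and 0 lower against 0.0546%. At an unadjusted p under 0.05 alone, 0 of 35 genes and 32 of 16492 probe sets passed, and at a Benjamini-Hochberg adjusted p under 0.05 no probe set did. With the experiment as a block the first rule called 4 of 35 genes higher in transgenic limbs, against 1.23% of all probe sets, and 0 lower, against 0.321%. The 4 genes were Col1a1, Col6a1, Col6a3 and Col8a2. In experiment 1 none of them was above 0.2, and Col1a1 (-0.054) and Col6a1 (-0.031) were slightly lower in transgenic limbs. None of them passed the adjusted threshold, which 0.273% of probe sets passed in the blocked limma fit.

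The differences of the collagen genes were unlike in the 2 experiments. In experiment 1 the transgenic array was more than 0.2 above the wildtype array for 0 of 35 genes, where 1.93% of all probe sets were. In experiment 2 it was so for 11 of 35, or 31.4%, where 2.71% of all probe sets were. These were the fibrillar genes Col1a1, Col3a1 and Col5a1, the type VI genes Col6a1, Col6a2, Col6a3 and Col6a5, the fibril-associated genes Col12a1 and Col16a1, and Col4a5 and Col8a2. Differences below -0.2 were found for 2 genes in experiment 1, Col20a1 and Col25a1, against 1.99% of probe sets, and for 0 in experiment 2, against 1.89%. The transgenic minus wildtype difference was larger in experiment 2 for 28 of the 35 genes, or 80%, against 49.5% of all probe sets. The median over the 35 genes was -0.013 in experiment 1 and 0.091 in experiment 2, where the medians over all probe sets were -0.0057 and -0.012.

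**Figure D1:**
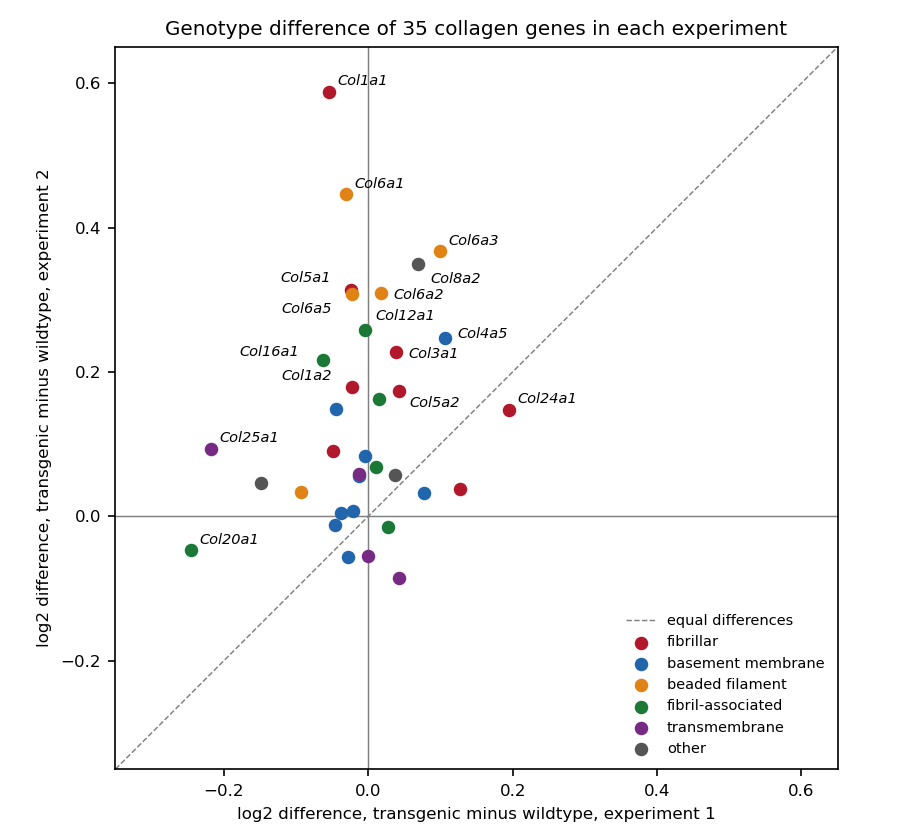
Each point is 1 of the 35 collagen genes, with its log2 difference, transgenic minus wildtype, in experiment 1 on the x axis and in experiment 2 on the y axis, coloured by class; the dashed line marks equal differences. The points stand in a column near 0 on the x axis that reaches 0.59 on the y axis at Col1a1. Above the dashed line lie 28 of 35, where 49.5% of all probe sets would.

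Few genes had genotypes that did not overlap. Both transgenic arrays lay above both wildtype arrays for Col6a2 and Col6a3, 2 of 35 genes, or 5.71%, against 5.67% of all probe sets. Both lay below for Col20a1 alone, against 12.7% of all probe sets. The difference was above 0 in both experiments for 12 genes, or 34.3%, against 22.4%. They were Col3a1, Col5a2, Col24a1, Col27a1, Col4a5, Col4a6, Col6a2, Col6a3, Col14a1, Col19a1, Col8a1 and Col8a2.

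Type I collagen is the main fibril of skin, tendon and bone and is made of chains from Col1a1 and Col1a2. Col1a1 (probe set 12842_at, chromosome 11) had a log2 value of 10.58 on the transgenic and 10.63 on the wildtype array of experiment 1, and of 10.96 and 10.37 on those of experiment 2. The wildtype array of experiment 2 was the lowest of the 4 and the transgenic array of that experiment the highest, so the genotypes overlapped. The genotype difference was 0.27 ± 0.096 (SE of the blocked limma fit, adjusted p = 0.42), made of -0.054 in experiment 1 and 0.59 in experiment 2. That SE rests mostly on the variance shared over all probe sets and is smaller than these 2 values alone would give. Without the transgenic array of experiment 2, and without the block, the genotype difference was 0.076. Such a fit with 1 array left out also takes in part of the difference between experiments. Col1a2 (12843_at) read 12.39 (transgenic) and 12.41 (wildtype) on the log2 scale in experiment 1 and 12.53 and 12.35 in experiment 2. Its order of arrays was that of Col1a1 with a smaller spread, and its differences were -0.022 and 0.18 in the 2 experiments. The value of Col1a1 minus that of Col1a2 ranged over 0.41 between arrays.

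Type III collagen, the fibril of pliable tissues and early mesenchyme, and type V collagen, which starts fibrils and sets their width, are linked by position, since Col3a1 and Col5a2 are neighbours on chromosome 1. Col3a1 (12825_at) had a log2 value of 13.57 on the transgenic and 13.53 on the wildtype array of experiment 1, and of 13.42 and 13.19 on those of experiment 2. For Col5a2 (12832_at) the log2 values were 11.24 and 11.19 in experiment 1 and 11.03 and 10.85 in experiment 2, transgenic first. Both genes were lowest on the wildtype array of experiment 2 and highest on the transgenic array of experiment 1, and the value of one minus that of the other ranged over only 0.055 between the 4 arrays. Their genotype differences were 0.13 and 0.11, with adjusted p = 0.62 and 0.71 in the blocked limma fit.

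Col5a1, the chain that joins Col5a2 in type V collagen, did not follow its partner. Col5a1 (12831_at) read 10.22 (transgenic) and 10.24 (wildtype) on the log2 scale in experiment 1 and 10.55 and 10.24 in experiment 2. The transgenic array of experiment 2 stood above the other 3, which lay within 0.024 of each other. Col5a1 minus Col5a2 ranged over 0.55 between arrays, and that difference was 0.44 higher in experiment 2. Col5a3, a less common type V chain, gave log2 values of 7.03 and 7.08 in experiment 1 and 7.07 and 6.98 in experiment 2, transgenic first, with the 4 arrays within 0.095 of each other.

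Col24a1 and Col27a1 encode the fibrillar chains of types XXIV and XXVII, the second of which is largely a cartilage product. Col24a1 (71355_at) had a log2 value of 7.25 on the transgenic and 7.05 on the wildtype array of experiment 1, and of 7.05 and 6.90 on those of experiment 2. It was the fibrillar gene with the most even genotype difference, 0.19 in experiment 1 and 0.15 in experiment 2 (blocked limma fit, adjusted p = 0.37), and stayed under 0.2. Col27a1 gave log2 values of 9.004 and 8.88 in experiment 1 and 9.36 and 9.32 in experiment 2, transgenic first. Its arrays split by experiment and not by genotype. All 8 fibrillar genes had a positive difference in experiment 2, from 0.038 to 0.59, and 4 of 8 did in experiment 1, from -0.054 to 0.19.

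Type VI collagen surrounds muscle fibres, tendon cells and fibroblasts as beaded filaments, and its standard molecule takes 1 chain each from Col6a1, Col6a2 and Col6a3. The windows around the transcript starts of Col6a1 and Col6a3 are shown because these genes were among the 4 with the blocked call. They run from 250 bases before to 50 bases after the start, from RefSeq on build GRCm38.p6, 5′ to 3′ on the strand of the gene. Both strands were searched for the CCAAT box, for TATAAA as the core of a TATA box, for the GC box GGGCGG and for TAAT as the core that many homeodomains bind. Capitals would mark a match, and neither window holds one. The first lies at chr10:76725995-76726294, minus strand, and the second at chr1:90843922-90844221, minus strand.
Col6a1: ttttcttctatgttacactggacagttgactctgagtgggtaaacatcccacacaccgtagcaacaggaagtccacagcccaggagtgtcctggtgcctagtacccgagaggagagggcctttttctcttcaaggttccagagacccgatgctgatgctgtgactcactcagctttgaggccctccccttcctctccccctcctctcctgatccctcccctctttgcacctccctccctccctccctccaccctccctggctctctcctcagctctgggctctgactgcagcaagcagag
Col6a3: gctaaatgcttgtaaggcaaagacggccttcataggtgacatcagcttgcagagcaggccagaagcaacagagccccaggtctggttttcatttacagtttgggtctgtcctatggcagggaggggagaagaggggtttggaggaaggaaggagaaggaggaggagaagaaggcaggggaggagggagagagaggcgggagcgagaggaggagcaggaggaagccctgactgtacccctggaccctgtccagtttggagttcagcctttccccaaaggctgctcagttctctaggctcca

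Windows were found for 28 of the 35 genes, 30 in all. GGGCGG or its reverse complement stood in 63.3% of these windows and in 35.7% of all 32851 windows in the table, TAAT in 33.3% and 58.0%, CCAAT in 36.7% and 37.4%, and TATAAA in 10.0% and 13.6%. A base can belong to more than 1 of these motifs, as where CCAAT runs into ATTA. The median GC content was 60.0% for the collagen windows and 52.7% for all. These are descriptions of letters in a window, not of bound sites.

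Col6a3 (12835_at) had the smallest blocked p of the 35 genes and was 1 of the 2 whose transgenic arrays both lay above the wildtype arrays. Its log2 value was 10.39 and 10.42 on the transgenic arrays of experiments 1 and 2 and 10.29 and 10.05 on the wildtype arrays. The difference was 0.23 ± 0.066 (SE, blocked limma fit, adjusted p = 0.23) and was positive in both experiments, at 0.099 and 0.37. Without the block its 95% interval ran from -0.058 to 0.52.

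Col6a1 (12833_at) had a log2 value of 9.44 on the transgenic and 9.47 on the wildtype array of experiment 1, and of 9.63 and 9.19 on those of experiment 2. Its genotypes overlapped, since both arrays of experiment 1 lay between those of experiment 2. The difference was 0.21 ± 0.081 (SE, blocked limma fit, adjusted p = 0.48), from -0.031 in experiment 1 and 0.45 in experiment 2. As for Col1a1, the SE is smaller than these 2 values alone would give. Without the wildtype array of experiment 2 and without the block the difference of Col6a1 was 0.068, and that of Col6a3 0.11. Col6a2 (12834_at), its neighbour on chromosome 10, gave log2 values of 9.74 and 9.72 in experiment 1 and 9.96 and 9.65 in experiment 2, transgenic first. Its genotypes did not overlap, though the arrays of experiment 1 were only 0.017 apart, and the difference of 0.16 stayed under 0.2 (blocked limma fit, adjusted p = 0.53). Without the transgenic array of experiment 2, in a fit with no block, it was 0.051. The 3 standard chains thus shared an array pattern in experiment 2, with the wildtype array lowest for each.

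Col6a4 and Col6a5 encode chains that can stand in for the Col6a3 chain and are neighbours on chromosome 9. Col6a5 gave log2 values of 6.12 and 6.15 in experiment 1 and 6.40 and 6.09 in experiment 2, transgenic first. Its transgenic array of experiment 2 was 0.25 above the next array, at a signal below the 25th percentile. Col6a4 gave log2 values of 7.02 and 7.11 in experiment 1 and 7.11 and 7.08 in experiment 2, transgenic first, within 0.093 over all arrays. Over the 5 type VI genes the median difference was -0.023 in experiment 1 and 0.31 in experiment 2, where 4 of 5 were above 0.2.

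**Figure D2:**
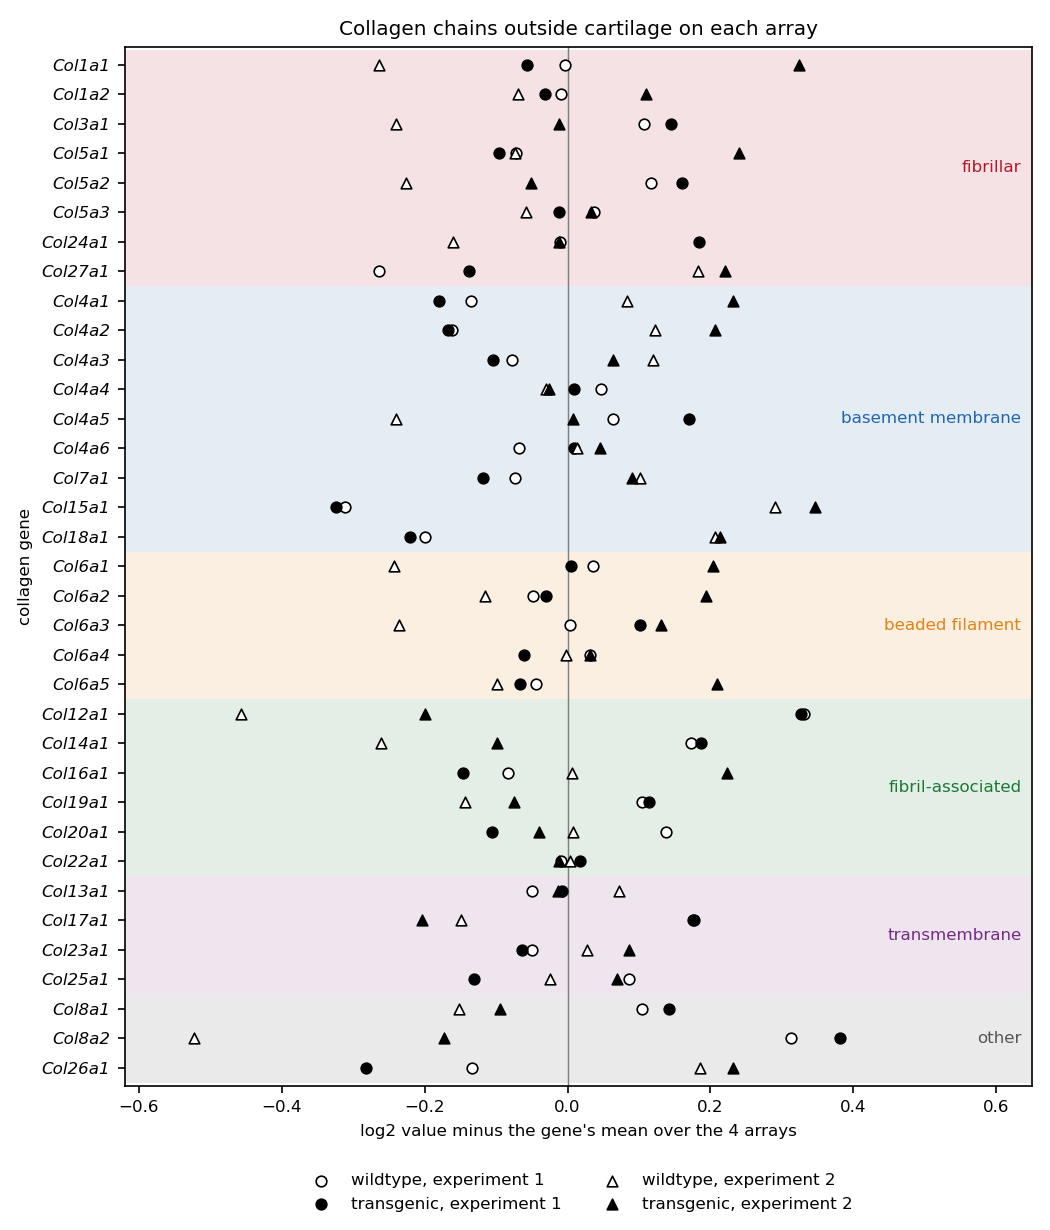
Each row is 1 collagen gene and each symbol 1 array, placed on the x axis by its log2 value minus the mean of that gene over the 4 arrays; circles are experiment 1, triangles experiment 2, filled symbols transgenic and open symbols wildtype. In 4 of the 5 type VI rows the filled triangle lies farthest to the right, while in the Col15a1, Col18a1, Col12a1 and Col8a2 rows circles and triangles form separate pairs.

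Type IV collagen is the network of every basement membrane, and its common molecule takes 2 chains from Col4a1 and 1 from Col4a2, whose genes lie head to head on chromosome 8. Their windows are shown because they share sequence and because the genes moved in parallel. The starts lie 21 bases apart on opposite strands, and the last 78 bases of each window, in capitals, are 1 stretch read on opposite strands, chr8:11312777-11312854 on build GRCm38.p6. The Col4a1 window is chr8:11312777-11313076, minus strand, and the Col4a2 window chr8:11312555-11312854, plus strand, both from RefSeq.
Col4a1: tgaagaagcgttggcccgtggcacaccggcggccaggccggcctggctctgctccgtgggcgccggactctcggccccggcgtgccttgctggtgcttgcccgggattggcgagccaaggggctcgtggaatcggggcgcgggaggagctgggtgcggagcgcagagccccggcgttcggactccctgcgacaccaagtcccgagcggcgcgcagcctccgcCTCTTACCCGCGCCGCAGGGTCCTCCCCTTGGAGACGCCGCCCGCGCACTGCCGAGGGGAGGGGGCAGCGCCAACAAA
Col4a2: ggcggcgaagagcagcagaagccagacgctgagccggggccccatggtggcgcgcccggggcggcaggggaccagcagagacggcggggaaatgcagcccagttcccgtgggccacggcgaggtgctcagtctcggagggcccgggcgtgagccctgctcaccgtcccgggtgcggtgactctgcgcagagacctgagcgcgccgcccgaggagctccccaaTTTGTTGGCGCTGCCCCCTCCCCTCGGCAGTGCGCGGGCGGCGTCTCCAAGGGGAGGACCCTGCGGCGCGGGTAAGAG

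Each of these windows holds CCAAT or its reverse complement 1 time, and neither holds TATAAA or TAAT. Col4a1 (12826_at) had a log2 value of 10.66 on the transgenic and 10.70 on the wildtype array of experiment 1, and of 11.07 and 10.92 on those of experiment 2. For Col4a2 (12827_at) the log2 values were 10.04 and 10.05 in experiment 1 and 10.41 and 10.33 in experiment 2, transgenic first. The order of the 4 arrays was the same for both, and Col4a1 minus Col4a2 ranged over 0.066. The genotype differences were 0.052 ± 0.062 and 0.039 ± 0.059 (SE, blocked limma fits, adjusted p = 0.91 and 0.93), while the experiment 2 minus experiment 1 differences were 0.32 ± 0.062 and 0.33 ± 0.059 (limma adjusted p = 5.5e-04 and 2.2e-04).

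Col4a3, Col4a4, Col4a5 and Col4a6 encode the chains of specialised basement membranes such as those of kidney, lung and smooth muscle. Col4a5 (12830_at, chromosome X) read 8.93 (transgenic) and 8.83 (wildtype) on the log2 scale in experiment 1 and 8.77 and 8.52 in experiment 2. The wildtype array of experiment 2 was lowest, and the genotypes overlapped. Its difference was 0.18 ± 0.060 (SE, blocked limma fit, adjusted p = 0.37), positive in both experiments at 0.11 and 0.25. Without the wildtype array of experiment 2 and without the block it was 0.025, in a fit that takes in part of the experiment difference. Xist, the RNA of the inactive X chromosome, read 6.58 and 6.42 on the transgenic arrays and 9.62 and 9.36 on the wildtype arrays, and the Y-linked Eif2s3y read 9.02 and 8.94 against 8.004 and 8.30. The sex makeup of the pools and the genotype cannot be told apart here, and its part in the value of the X-linked Col4a5 was not tested.

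Col4a6, the X-linked neighbour of Col4a5, gave log2 values of 7.75 and 7.67 in experiment 1 and 7.78 and 7.75 in experiment 2, transgenic first. Col4a3 gave log2 values of 6.33 and 6.35 in experiment 1 and 6.49 and 6.55 in experiment 2, transgenic first, and its neighbour Col4a4 gave log2 values of 6.52 and 6.55 in experiment 1 and 6.48 and 6.48 in experiment 2, transgenic first. All 3 differed by less than 0.1 between genotypes in each experiment. By experiment the neighbours differed in their calls, though the difference between them was not tested. Col4a3 was 0.18 higher in experiment 2 (limma adjusted p = 0.018) and Col4a4 gave -0.056 (adjusted p = 0.48), while Col4a5 gave -0.23 (adjusted p = 0.0047) and Col4a6 0.059 (adjusted p = 0.46).

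Types XV and XVIII collagen carry heparan sulphate or chondroitin sulphate chains and tie basement membranes to the matrix, and the end of type XVIII is cut to endostatin. Col15a1 (12819_at) had a log2 value of 7.94 on the transgenic and 7.95 on the wildtype array of experiment 1, and of 8.61 and 8.55 on those of experiment 2. Col18a1 (12822_at) read 9.85 (transgenic) and 9.87 (wildtype) on the log2 scale in experiment 1 and 10.28 and 10.27 in experiment 2. In both genes the 2 arrays of an experiment lay close together and the experiments stood apart, with genotype differences of 0.022 and -0.0065. Col7a1, the anchoring fibril chain of the skin, gave log2 values of 8.19 and 8.24 in experiment 1 and 8.40 and 8.41 in experiment 2, transgenic first, with the same split. The median genotype difference of the 9 basement membrane genes was -0.021 in experiment 1 and 0.033 in experiment 2, and only Col4a5 was above 0.2 in either.

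Fibril-associated collagens lie on the surface of fibrils. Col12a1, the type XII chain of tendon, ligament and perichondrium, was 9.12 and 8.60 on the transgenic arrays of experiments 1 and 2 and 9.13 and 8.34 on the wildtype arrays. The 2 arrays of experiment 1 lay above those of experiment 2, and within experiment 2 the transgenic array was 0.26 above the wildtype array. Col14a1, the type XIV chain of similar tissues, gave log2 values of 8.002 and 7.99 in experiment 1 and 7.72 and 7.55 in experiment 2, transgenic first, in the same order of experiments. Col16a1, a chain that lies on fibrils and near cells, gave log2 values of 8.97 and 9.04 in experiment 1 and 9.34 and 9.12 in experiment 2, transgenic first, with the transgenic array of experiment 2 highest.

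Col20a1 was the only gene of the 35 with both transgenic arrays below both wildtype arrays. Its value was 7.24 and 7.31 on the transgenic arrays of experiments 1 and 2 and 7.48 and 7.35 on the wildtype arrays. The difference of -0.15 ± 0.062 (SE, blocked limma fit, adjusted p = 0.56) stayed inside -0.2, and it came to -0.24 in experiment 1 and -0.047 in experiment 2. Col19a1 gave log2 values of 7.33 and 7.32 in experiment 1 and 7.15 and 7.08 in experiment 2, transgenic first, and differed by 0.010 and 0.069 between genotypes. For Col22a1, a chain of tissue junctions such as that of muscle and tendon, the 4 arrays lay within 0.030 of each other.

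Transmembrane collagens stand in the cell surface. Col17a1, a part of the hemidesmosomes that fix epidermis to its basement membrane, gave log2 values of 8.30 and 8.30 in experiment 1 and 7.92 and 7.97 in experiment 2, transgenic first, so the experiments stood apart and the genotypes did not. Col25a1, which motor nerves need to enter muscle, gave log2 values of 8.13 and 8.35 in experiment 1 and 8.33 and 8.24 in experiment 2, transgenic first. Its wildtype array was highest in experiment 1 and its transgenic array was the higher of the 2 in experiment 2, with differences of -0.22 and 0.094. Col23a1 gave log2 values of 8.87 and 8.88 in experiment 1 and 9.02 and 8.96 in experiment 2, transgenic first. It and Col13a1, a chain of the neuromuscular junction, differed by less than 0.1 between genotypes in each experiment.

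Types VIII and XXVI stand outside these classes. Col8a1 and Col8a2 encode short chains that form lattices, best known beneath the endothelium of vessels and cornea. No window was found for Col1a1, which is also among the 4 genes with the blocked call. The Col8a2 window, chr4:126286544-126286843 on the plus strand of GRCm38.p6 from RefSeq, is shown because Col8a2 is another of these 4 genes. Unlike the Col6a1 and Col6a3 windows, it holds GGGCGG on either strand, in capitals.
Col8a2: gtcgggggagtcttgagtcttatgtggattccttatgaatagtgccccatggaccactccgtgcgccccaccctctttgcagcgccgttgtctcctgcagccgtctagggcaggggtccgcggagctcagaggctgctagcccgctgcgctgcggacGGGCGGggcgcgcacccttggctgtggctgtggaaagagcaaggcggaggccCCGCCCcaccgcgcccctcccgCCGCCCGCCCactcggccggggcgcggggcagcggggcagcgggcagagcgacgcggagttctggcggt

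Col8a2 (329941_at) had a log2 value of 8.51 on the transgenic and 8.44 on the wildtype array of experiment 1, and of 7.96 and 7.61 on those of experiment 2. Both arrays of experiment 1 were above both of experiment 2, and in each experiment the transgenic array was higher, by 0.068 and 0.35. The blocked difference was 0.21 ± 0.067 (SE, limma, adjusted p = 0.32). Without the block it turned to -0.068 without the transgenic array of experiment 1 and to -0.21 without the wildtype array of experiment 2. Each of those fits takes in part of the experiment difference of -0.69, so the turn in sign cannot be read as one of the genotype difference. Col8a1 gave log2 values of 7.90 and 7.87 in experiment 1 and 7.67 and 7.61 in experiment 2, transgenic first, with no genotype difference above 0.058 in either experiment. Col26a1 gave log2 values of 10.11 and 10.26 in experiment 1 and 10.62 and 10.58 in experiment 2, transgenic first, with the transgenic array lower in experiment 1 and slightly higher in experiment 2.

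At the adjusted threshold the experiments differed for 19 of these genes and the genotypes for 0. In a limma fit with experiment and genotype, 9 of 35 genes were higher in experiment 2 at an adjusted p under 0.05, where 20.1% of all probe sets were, and 10 were lower, where 19.1% were. The other 16 passed in neither direction. Without the transgenic array of experiment 1, or without the wildtype array of experiment 2, 5 genes were lower. The median over the 35 genes was 0.040, and over all probe sets 0.0070. Its sign was not stable, as it was 0.0045 without the transgenic array of experiment 1 and -0.044 without that of experiment 2.

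Basement membrane genes made up 6 of the 9 that were higher in experiment 2. Col15a1 was higher by 0.64 ± 0.058 (SE, adjusted p = 2.0e-07 in limma), at 0.60 in wildtype and 0.67 in transgenic pools. Col18a1 was higher by 0.42 ± 0.058, with 0.41 and 0.43 in the same order. Col4a1, Col4a2, Col7a1 and Col4a3 were the others, between 0.18 and 0.33, and Col4a5 was the only basement membrane gene called lower. Outside this class Col27a1 (0.40), Col26a1 (0.42) and Col16a1 (0.23) were higher, each in both genotypes.

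The lower genes came mostly from other classes. Experiment 2 minus experiment 1 was -0.69 ± 0.067 for Col8a2 and -0.66 ± 0.066 for Col12a1 (SE, adjusted p = 3.5e-07 and 5.3e-07 in limma). Col14a1 (-0.36), Col17a1 (-0.35), Col5a2 (-0.28), Col3a1 (-0.25), Col8a1 (-0.25), Col4a5 (-0.23), Col19a1 (-0.22) and Col24a1 (-0.17) were lower as well. For these 10 genes both genotypes had the same direction and the experiments did not overlap. No type VI gene passed in either direction, and Col1a1 gave -0.26 in wildtype and 0.38 in transgenic pools.

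**Figure D3:**
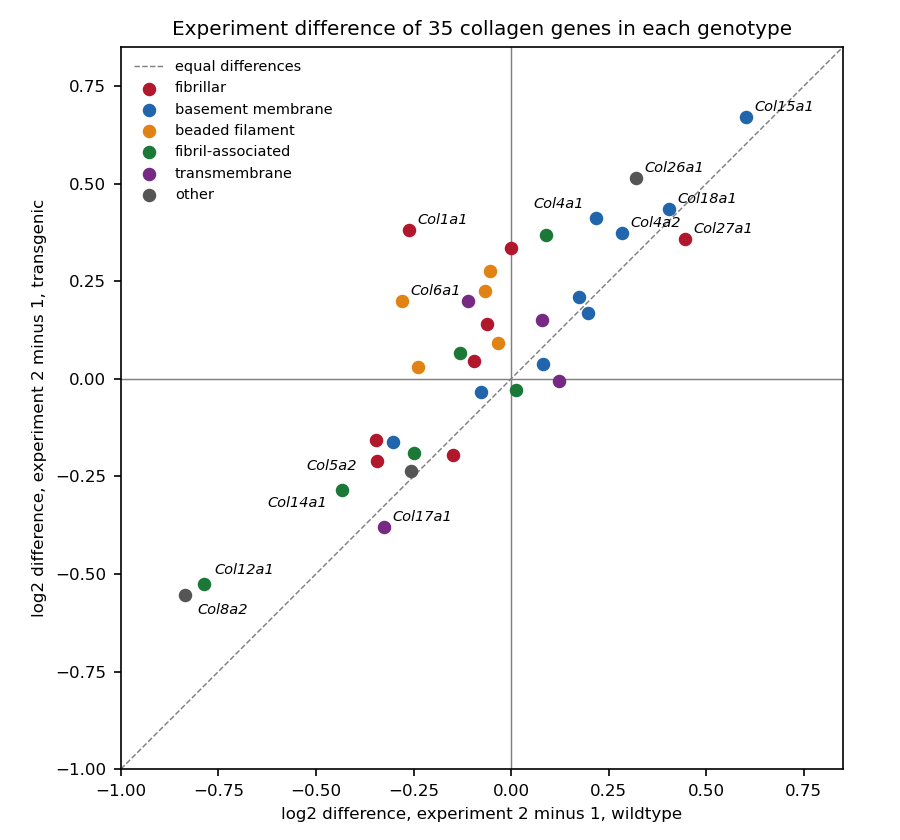
Each point is 1 of the 35 collagen genes, with the log2 difference experiment 2 minus experiment 1 between the wildtype arrays on the x axis and between the transgenic arrays on the y axis, coloured by class; the dashed line marks equal differences. Col15a1 lies at the upper right and Col8a2 and Col12a1 at the lower left near the dashed line, while Col1a1 and Col6a1 lie at the upper left, where the 2 genotypes differ in sign.

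Marker genes of other limb tissues were set beside the genotype values. Of 8 skeletal muscle genes, 6 were more than 0.2 higher on the transgenic array of experiment 2, where 2.71% of all probe sets were. The median difference of the 8 genes was 0.078 in experiment 1 and 0.28 in experiment 2. Their mean log2 level was 10.25 and 10.16 on the transgenic and wildtype arrays of experiment 1 and 9.91 and 9.60 on those of experiment 2. Of 8 smooth muscle and pericyte genes, 3 were above 0.2 in experiment 2, Cspg4, Acta2 and Tagln, with Acta2 at 0.37 and Tagln at 0.39, after 0.0090 and -0.030 in experiment 1. The mean level of that list was lowest on the wildtype array of experiment 2, at 7.98 against 8.13 to 8.16 on the other 3. The 8 endothelial genes gave medians of 0.045 and 0.073, and none was above 0.2. The median was larger in experiment 1 for some other lists. In experiments 1 and 2 it was 0.21 and 0.16 for 8 chondrocyte genes, 0.20 and 0.063 for 6 genes of neurons and Schwann cells, 0.075 and -0.0075 for 8 epidermis genes and 0.099 and 0.084 for 6 tendon genes. For 8 limb mesenchyme genes it was below 0 in both, at -0.070 and -0.041. With the block, 4 of 8 chondrocyte genes and also 4 of 8 skeletal muscle genes were called higher in transgenic limbs, against 1.23% of all probe sets. Of the 8 epidermis genes 2 were. No skeletal muscle gene passed the adjusted threshold. Matn1, a cartilage matrix protein, passed it at 0.34 ± 0.058 (SE, limma, adjusted p = 0.013). Of the epidermis list the keratin gene Krt8 passed it, at 0.50 ± 0.060 (SE, limma, adjusted p = 3.5e-04). Krt8 was the highest of that list, whose 8 genes ran from -0.11 to 0.50 with a median of 0.010 over both experiments. The part of these tissues in the genotype values of the collagen genes was not tested.

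By experiment, 7 of 8 limb mesenchyme genes were higher in experiment 2 and 0 lower at an adjusted p under 0.05 in limma. Their median was 0.43, and of all probe sets 20.1% were higher and 19.1% lower. Of 8 skeletal muscle genes 7 were lower and 1 higher (median -0.45). Of 8 genes of the epidermis, the known place of Col17a1, 6 were lower and 0 higher (median -0.38). Of 6 tendon genes 4 were lower and 1 higher (median -0.23), and of 8 endothelial genes 3 were lower and 2 higher. The part of these tissues in the experiment differences of the collagen genes was not tested.

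The enzymes and chaperones that make, cut, bind and break down collagen were described from 4 lists, with 48 of 54 genes measured. With the block, 1 of the 48 was called higher in transgenic limbs at the study's thresholds and 0 lower, near the background of 1.23% and 0.321% of all probe sets. The gene was Creb3l1, a transcription factor of collagen secretion in bone, at 0.20 ± 0.072 (SE, blocked limma fit, adjusted p = 0.40), from 0.024 in experiment 1 and 0.38 in experiment 2. Over the 48 genes the median difference was 0.016 in experiment 1 and 0.093 in experiment 2. It was larger in experiment 2 for 39 of the 48, or 81.25%, against 49.5% of all probe sets. Sparc, a collagen-binding matrix protein, gave -0.023 and 0.35, Sec24d, a coat protein of procollagen export, 0.050 and 0.23, and Lox, which crosslinks fibrils, 0.078 and 0.29. In experiment 2, 7 of the 48 were above 0.2 and 1 below -0.2, against 2.71% and 1.89% of all probe sets. The gene below -0.2 was Itga1, a chain of a collagen-binding integrin, which gave 0.037 and -0.25.

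By experiment, 10 of the 48 were higher and 14 lower in experiment 2 at an adjusted p under 0.05 in limma. Of all probe sets 20.1% were higher and 19.1% lower, so the count of higher genes was near that background. Lox was lower (-0.93), as were Serpinh1, the collagen chaperone (-0.47), and Itgb1, the shared chain of the collagen-binding integrins (-0.78). Of the 18 genes of chain synthesis among the 48, 4 were higher and 6 lower. Bmp1, which trims the ends of procollagen and is not among those 18, was higher (0.68). Of the 18, Creb3l1 (0.19) was higher, as were P3h3 (0.44), the lysyl hydroxylase Plod3 (0.32) and Fkbp10 (0.31), which act on new chains. Other genes with such roles were lower, among them the lysyl hydroxylase Plod2 (-0.30), P4ha1 (-0.28), Colgalt2 (-0.24) and Crtap (-0.19). Among 15 laminins and other basement membrane partners, 3 were higher and 3 lower. The nidogens, which link laminin to type IV collagen, went opposite ways, Nid2 at 0.39 and Nid1 at -0.44.

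The 7 cartilage collagens left aside are given for comparison. Of these, 5 had a positive genotype difference in experiment 1 and 7 in experiment 2, with medians of 0.11 and 0.20. Col9a3 was higher in transgenic limbs by 0.39 ± 0.062 (SE, blocked limma fit, adjusted p = 0.0083), at 0.30 and 0.48, and Col11a1 gave 0.17 and 0.43 (adjusted p = 0.083). Col2a1, whose regulatory sequence drives the transgene, gave -0.024 and 0.20, and was 1.21 higher in experiment 2 (limma adjusted p = 5.4e-10). The difference between these 2 groups of genes was not tested.

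**Figure D4:**
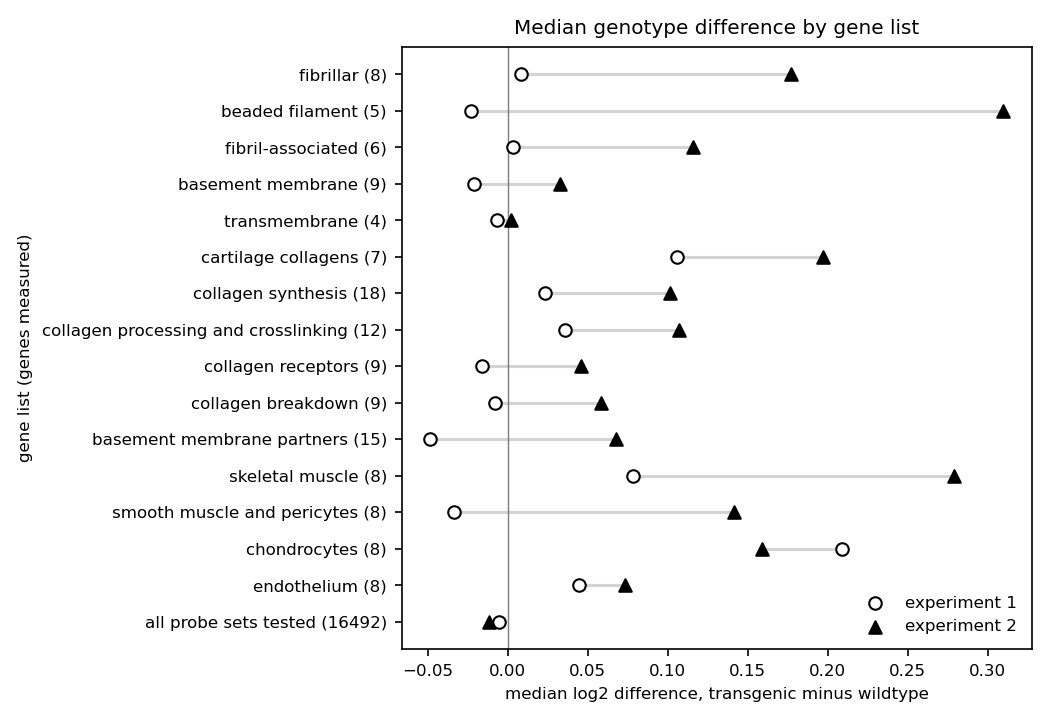
For each gene list, with the number of genes measured in brackets, the open circle is the median log2 difference, transgenic minus wildtype, in experiment 1 and the triangle that in experiment 2. The type VI genes have the widest gap between the symbols shown, from -0.023 to 0.31, followed by skeletal muscle, smooth muscle and the fibrillar genes, while the median of all probe sets stays near 0.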

How the data were processed

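Pooled E12.5 limb RNA was measured on 4 arrays, 2 transgenic and 2 wildtype. Per the study's methods, the authors took logs of the perfect-match probe intensities, applied quantile normalization and grouped probes by Entrez gene. They then fitted log-linear mixed models with fixed terms for probe and genotype and a random term for the sample. Whether the deposited values come from that fit is not given in the sources used here. The deposited values are log2 intensities, as judged from their range. Of 16556 probe sets, 64 are controls and were left out. Of the 16492 tested, 15270 were named by the platform annotation used here, 988 more by RefSeq Entrez gene number, and 234 stayed unnamed.

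Genotypes were compared with limma 3.58.1 in R 4.3.3 (functions lmFit and eBayes, no other term), with Benjamini-Hochberg adjustment over all probe sets at 0.05. A second fit took the experiment as a block, because array titles share a suffix in pairs and the design text names 2 experiments. That the suffix marks the experiment is an assumption. Paired arrays deviated together from the means of their groups (correlation 0.857 over probe sets). Residual degrees of freedom were 2 without and 1 with the block, with 2.40 and 16.4 prior degrees of freedom. Experiments were compared with genotype in the model. The fits were tested on simulated data with the same noise for every gene and a genotype difference equal in both experiments. That setting is simpler than these data. It does not show how the blocked fit treats genes such as Col1a1, whose difference varied between experiments. P-values cover only these pools. They and the SE draw on a variance shared over all probe sets, which is by far the larger part in the fits with the block. For a single gene the SE can thus be smaller than its own spread would give.

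The members and gene lists were chosen with earlier results of these data known. Values on every array are given for genes that pass a rule by genotype, for chains of types I, III, IV, V, VI and XII, and for the genes of each class with the highest means or the largest differences. Col7a1, Col8a1, Col19a1, Sparc, Lox, Bmp1, Itgb1, Itga1, Plod2, P4ha1, Colgalt2, Crtap, Matn1, Krt8, Acta2, Tagln, Cspg4, Xist and Eif2s3y fall outside this rule and were chosen after their values were seen. Other settings tried were arrays centred on 1 median, a second quantile normalization, filters on mean signal at the 25th or 50th percentile, an intensity trend, an analysis of variance without moderation, fold thresholds of 0.1 and 0.3, no genotype term, and each array left out in turn.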

Additional observations from a re-analysis of the deposited data

Results flagged for a closer look

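For 7 genes the transgenic minus wildtype difference had opposite signs in the 2 experiments, and its size was above 0.2 in at least 1 of them. This rule was applied to the collagen genes only and not to all probe sets. Whether the count is unusual on these arrays can thus not be told. With 1 array of each genotype per experiment, the difference between experiments was not tested. For Col1a1 it went from -0.054 in experiment 1 to 0.59 in experiment 2, a change of 0.64. Col6a1, of type VI collagen, changed by 0.48 and Col6a5 of the same type by 0.33. Col5a1, of type V collagen, changed by 0.34. Among the fibril-associated genes Col16a1 changed by 0.28 and Col12a1 by 0.26. In all 6 the transgenic array was slightly lower in experiment 1 and higher in experiment 2. Col25a1, a transmembrane chain, was the only one whose larger difference lay in experiment 1, at -0.22, and it changed by 0.31.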

How the results depend on the processing

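With genotype alone, 0 of 35 genes were called in either direction under every alternative but the replicate block, which called 4 higher. Repeated quantile normalization turned the genotype differences of Col4a4 to 0.016 and of Col13a1 to 0.010, and centring turned that of Col22a1 to -0.0057 and the experiment difference of Col6a4 to -0.0021. The count of genes lower in experiment 2 was 10, and 6 with the filter at the 50th percentile, which left 22 genes. Leaving out 1 array gave 5 to 13 such genes, 5 without the transgenic array of experiment 1 or the wildtype array of experiment 2, and 6 to 11 higher genes. The block could not be fitted with 1 array left out.

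With 1 array left out and no block, the genotype difference kept its direction for 10 of 35 genes and changed it for 25, and the experiment difference kept it for 24 and changed it for 11. Such a fit leaves 1 group with a single array, from 1 experiment only. Part of the experiment difference thus enters the genotype difference, and part of the genotype difference enters the experiment difference. A change of direction in these fits is therefore not a measure of how stable the genotype difference within experiments is. The genotype difference ran over these fits for Col12a1 from -0.27 to 0.52, Col13a1 from -0.083 to 0.040, Col14a1 from -0.13 to 0.31, Col15a1 from -0.31 to 0.36, Col16a1 from -0.11 to 0.26, Col17a1 from -0.22 to 0.16, Col18a1 from -0.22 to 0.21, Col19a1 from -0.085 to 0.16, Col22a1 from -0.0086 to 0.021. Further genotype ranges were Col23a1 from -0.052 to 0.098, Col25a1 from -0.16 to 0.038, Col26a1 from -0.31 to 0.21, Col27a1 from -0.14 to 0.31, Col3a1 from -0.040 to 0.31, Col4a1 from -0.15 to 0.26, Col4a2 from -0.15 to 0.23, Col4a3 from -0.14 to 0.057, Col4a4 from -0.056 to 0.022. The last were Col5a1 from -0.023 to 0.31, Col5a2 from -0.063 to 0.28, Col5a3 from -0.026 to 0.069, Col6a4 from -0.076 to 0.017, Col7a1 from -0.13 to 0.076, Col8a1 from -0.081 to 0.18, Col8a2 from -0.21 to 0.63. The experiment difference ran for Col1a1 from -0.23 to 0.35, Col1a2 from -0.050 to 0.13, Col20a1 from -0.15 to 0.090, Col22a1 from -0.022 to 0.0045, Col25a1 from -0.065 to 0.15, Col5a3 from -0.070 to 0.021, Col6a1 from -0.26 to 0.18, Col6a2 from -0.077 to 0.23, Col6a3 from -0.29 to 0.079. The other such ranges were Col6a4 from -0.017 to 0.076, Col6a5 from -0.044 to 0.26. Where the direction was kept, the genotype difference ran for Col1a1 from 0.076 to 0.46, Col1a2 from 0.0084 to 0.15, Col20a1 from -0.21 to -0.080, Col24a1 from 0.073 to 0.27, Col4a5 from 0.025 to 0.33, Col4a6 from 0.014 to 0.095, Col6a1 from 0.068 to 0.35, Col6a2 from 0.051 to 0.28, Col6a3 from 0.11 to 0.35, Col6a5 from 0.0049 to 0.28. The median experiment difference of the 35 genes was 0.0087 after centring, 0.015 after repeated quantile normalization, and -0.044 to 0.079 with 1 array left out. The experiment calls of Col3a1, Col5a2, Col24a1, Col4a3, Col4a5, Col7a1, Col16a1 and Col19a1 were lost with at least 1 array left out. Depth is not known for arrays, and 4 of the 35 genes lay below the 25th percentile of mean signal.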
